A study of Mus musculus with 15 samples.

Results

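The 10 acetylcholine receptor genes described here are the muscarinic receptor genes Chrm1, Chrm2, Chrm3 and Chrm4 and the nicotinic subunit genes Chrna3, Chrna4, Chrna7, Chrnb2, Chrnb3 and Chrnb4. They were chosen by name, as 10 of the 32285 genes counted in single-nucleus RNA-seq of the mouse dorsal hippocampal formation (dHF), and each was followed through 5 classes of nuclei. The libraries came from 15 wild-type C57BL6/J female mice, 1 library per mouse, with no transgene in any group. The NP group held 6 age-matched virgin (nulliparous) females. The ControlPP group held 4 females with reproductive experience, that is, dams that had borne and raised a litter. The StressPP group held 5 females with the same experience plus a chronic postpartum stress of limited nesting material and repeated separation from the pups. The labels put the mice in 3 batches, and batch 1 holds no ControlPP mouse. The study's methods describe processing batches that each held all groups, and whether the labelled batches are these is not known. The punches were enriched for dHF and also took in neighbouring tissue, so the thalamic and habenula-type nuclei below are neighbours of the dHF and not part of it. The GABAergic class is mixed too. Of its 8282 nuclei, 2903 were marked as diencephalic or midbrain and 1896 as striatal projection neurons, so its levels are not those of hippocampal interneurons alone.

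Acetylcholine acts on the brain through muscarinic and nicotinic receptors. Muscarinic receptors are coupled to G proteins: the products of Chrm1 and Chrm3 act through Gq and phospholipase C and raise excitability, whereas those of Chrm2 and Chrm4 act through Gi and often sit on axon terminals, where they restrain transmitter release. Nicotinic receptors are pentameric cation channels built from alpha and beta subunits. The products of Chrna4 and Chrnb2 form the common high-affinity receptor, that of Chrna7 forms a channel on its own, and those of Chrna3 and Chrnb4, with Chrnb3 as an accessory subunit, are known for their place in the habenula. The hippocampus receives its acetylcholine from the medial septum, and the medial habenula holds cholinergic neurons of its own.

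The files held between 40602582 and 96211264 unique molecular identifiers (UMIs, 1 per captured RNA molecule) per mouse, and 123913 nuclei were kept after filtering, 5468 to 11438 per mouse. Any pair of libraries shared 6 to 47 cell barcodes, at most 0.461% of the smaller library. The nuclei fell into 36 clusters, which were formed without the receptor genes and the other cholinergic genes. Clusters named from marker genes gave 47162 hippocampal excitatory, 6964 thalamic excitatory, 1258 habenula-type, 8282 GABAergic and 48002 glial nuclei. The markers fitted these names. Pooled over mice, Slc17a7, the vesicular glutamate transporter of forebrain excitatory neurons, stood at 207 CPM, meaning UMIs scaled to the same total in every class and mouse, in the hippocampal class. Tcf7l2 stood at 885 CPM in the thalamic class, Pou4f1 at 113 CPM in the habenula-type class and Gad2 at 448 CPM in the GABAergic class. Another 5606 nuclei stayed unnamed and 6639 belonged to other cell types. Habenula-type nuclei were unevenly sampled: they made up 0.166 to 4.82% of the nuclei of an NP mouse, 0 to 0.321% of those of a ControlPP mouse and 0 to 1.10% of those of a StressPP mouse. Levels are given below as CPM of the UMIs summed per mouse and class, as mean ± SD. Only mice that had 10 or more such nuclei entered, which is all 15 except for the habenula-type class, with 12. CPM is not scaled by gene length, so each gene was compared with itself across cells.

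Several of the nicotinic genes are neighbours in the mm10 genome. Chrna3 (chr9:55010111-55026562) and Chrnb4 (chr9:55028154-55048779) lie head to tail on the minus strand with 1591 bases between them, and Chrna5 (chr9:54980880-55007779) ends 2331 bases away on the other side. Chrnb3 (chr8:27368711-27399730, plus strand) lies 3481 bases from Chrna6 on the opposite strand. The other members lie apart. Chrna4 is at chr2:181018380-181043546, Chrnb2 at chr3:89746195-89764632 and Chrna7 at chr7:63098692-63212569, all on the minus strand. Chrm1 is at chr19:8663789-8683587 and Chrm2 at chr6:36388084-36528414, both on the plus strand, and Chrm3 spans 485362 bases of the minus strand at chr13:9875486-10360847. The annotated Chrm4 (chr2:91927249-91928688) is a single exon of 1440 bases, where the RefSeq gene spans 7647 bases. Chrnb2 overlaps Adar on the opposite strand by 7252 bases.

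The promoters of the 2 subunit pairs that were detected together in the nuclei described below are shown, from RefSeq on GRCm38.p6, from 250 bases before to 50 bases after a RefSeq start of transcription. For Chrna4 and Chrnb4 the start used lies inside the gene, past the outermost RefSeq start. The sequences run 5′ to 3′ along the gene's strand, and capitals mark GC boxes, searched as GGGCGG on both strands, with no overlap with the other motif searched.
Chrna3 promoter, chr9:55026513-55026812, minus strand: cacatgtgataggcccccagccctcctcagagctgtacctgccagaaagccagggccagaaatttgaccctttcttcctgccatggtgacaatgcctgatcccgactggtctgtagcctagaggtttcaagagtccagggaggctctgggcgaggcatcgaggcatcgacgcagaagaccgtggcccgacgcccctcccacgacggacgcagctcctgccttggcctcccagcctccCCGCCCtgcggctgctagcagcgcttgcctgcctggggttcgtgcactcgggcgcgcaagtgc
Chrnb4 promoter, chr9:55048495-55048794, minus strand: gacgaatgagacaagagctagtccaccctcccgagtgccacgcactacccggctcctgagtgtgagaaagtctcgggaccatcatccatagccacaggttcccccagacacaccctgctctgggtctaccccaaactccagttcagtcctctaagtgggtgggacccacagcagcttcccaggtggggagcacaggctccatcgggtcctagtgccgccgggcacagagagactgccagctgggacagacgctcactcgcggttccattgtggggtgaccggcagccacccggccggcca
Chrna4 promoter, chr2:181039128-181039427, minus strand: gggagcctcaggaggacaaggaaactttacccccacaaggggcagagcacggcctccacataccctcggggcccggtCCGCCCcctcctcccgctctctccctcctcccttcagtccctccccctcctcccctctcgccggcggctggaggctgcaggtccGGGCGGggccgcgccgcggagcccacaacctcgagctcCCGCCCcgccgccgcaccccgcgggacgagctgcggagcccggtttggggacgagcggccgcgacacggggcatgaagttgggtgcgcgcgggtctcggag
Chrnb2 promoter, chr3:89764583-89764882, minus strand: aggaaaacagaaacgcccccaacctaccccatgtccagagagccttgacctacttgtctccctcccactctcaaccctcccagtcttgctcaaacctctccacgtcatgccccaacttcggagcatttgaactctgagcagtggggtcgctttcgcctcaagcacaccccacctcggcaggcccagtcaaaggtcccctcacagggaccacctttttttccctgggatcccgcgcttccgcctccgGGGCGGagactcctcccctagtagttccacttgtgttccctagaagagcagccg
The Chrna4 promoter held 3 GC boxes and those of Chrna3 and Chrnb2 held 1 each, and these letters were not in the Chrnb4 window. The same letters were in 35.7% of 32851 promoters of this length. The TATA box letters TATAAA, in 13.6% of all promoters, were in none of the 8 members' promoters that were matched.

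Taking the muscarinic genes first, Chrm1 was highest in hippocampal excitatory neurons, at 75.5 ± 8.6 CPM (SD, n = 15). It stood at 20.6 ± 9.1 CPM in GABAergic nuclei, 13.4 ± 3.3 CPM in glia, 11.9 ± 7.6 CPM in habenula-type nuclei (n = 12) and 4.09 ± 1.6 CPM in thalamic nuclei. The step from the hippocampal to the GABAergic class exceeded the larger SD, and the steps from GABAergic to glial and from glial to habenula-type nuclei did not. Within the hippocampal class Chrm1 was at 85.1 ± 11 CPM in CA1, 79.0 ± 9.3 CPM in dentate granule neurons, 64.4 ± 9.7 CPM in CA3 and 63.9 ± 13 CPM in CA2, and at 47.5 ± 12 CPM in mossy cells and 47.4 ± 5.2 CPM in subiculum (n = 12 mice each). Outside it, striatal projection neurons (48.4 ± 13 CPM, n = 8 mice) and Lamp5 interneurons (35.3 ± 15 CPM) had the most Chrm1 among the GABAergic types. The hippocampal class held 38.1% of all nuclei and 85.7% of all Chrm1 UMIs.

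Chrm3, the other Gq-coupled member, divided the hippocampal fields. It was at 2353 ± 240 CPM in CA1, 1936 ± 190 CPM in CA3, 1697 ± 170 CPM in subiculum (n = 12 mice), 1617 ± 130 CPM in mossy cells (n = 12) and 1366 ± 98 CPM in CA2, against 57.3 ± 36 CPM in dentate granule neurons. The mice ranged from 1860 to 2719 CPM in CA1 and from 17.2 to 161 CPM in granule neurons, so that all 15 were far higher in CA1. At least 1 Chrm3 UMI was found in 99.7% of CA1 nuclei (95% Wilson interval, 99.5 to 99.8%) and in 31.6% (31.1 to 32.1%) of granule nuclei, or 87% and 6.71% once nuclei were thinned to 1000 UMIs and shallower ones, 5 in CA1 and 1796 of the granule nuclei, were left out. Oligodendrocytes, used here to show how much free RNA a nucleus may pick up, had a share of 28.1%, or 12.8% thinned. They were shallower than granule nuclei, with a median of 2500 against 8007 UMIs. Whether they express Chrm3 themselves, and how much of the granule share is free RNA, was not tested. The same limits hold wherever a level is set beside that of oligodendrocytes below. The granule neurons included a shallow cluster of 3646 nuclei with a median of 1042 UMIs, in which Chrm3 stood at 508 CPM.

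Over whole classes Chrm3 was at 820 ± 200 CPM in hippocampal, 635 ± 130 CPM in GABAergic, 411 ± 69 CPM in thalamic, 336 ± 140 CPM in habenula-type and 142 ± 48 CPM in glial nuclei. The hippocampal and GABAergic values were not apart by more than the larger SD, nor were the thalamic and habenula-type values. Interneurons also differed among themselves, though far less widely than the pyramidal fields and granule neurons did. Chrm3 was at 1286 ± 110 CPM in Vip interneurons and 1002 ± 260 CPM in Sst interneurons, but 430 ± 99 CPM in Pvalb and 304 ± 72 CPM in Lamp5 interneurons.

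Chrm2, which is Gi-coupled, was low in hippocampal excitatory neurons (5.47 ± 3.1 CPM), below its level in oligodendrocytes (13.7 ± 7.1 CPM), and high in habenula-type (394 ± 440 CPM, n = 12), GABAergic (290 ± 110 CPM) and thalamic nuclei (135 ± 22 CPM). The habenula-type and GABAergic values overlapped widely. Among GABAergic types it was highest in those marked as diencephalic or midbrain (658 ± 120 CPM), followed by Pvalb (266 ± 60 CPM) and Sst interneurons (166 ± 62 CPM), whereas Lamp5 (10.6 ± 12 CPM) and Vip interneurons (8.65 ± 9.2 CPM) were at the oligodendrocyte level. Mossy cells, the excitatory neurons of the dentate hilus, were the exception among hippocampal excitatory types, with 73.9 ± 40 CPM (n = 12 mice). Of all Chrm2 UMIs, 41.9% lay in GABAergic, 24.0% in thalamic and 20.4% in unnamed nuclei.

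The 4 named interneuron types thus differed in their pairing of the 2 genes. Among them Vip interneurons had the most Chrm3 and little Chrm2, Pvalb interneurons the most Chrm2 and less Chrm3, and Sst interneurons had both. The Vip interneurons, named from a marker list, held a sub-cluster of 349 nuclei with 410 CPM of Vip and another of 277 nuclei with 2.7 CPM of Vip. Chrm3 was at 1282 and 1313 CPM in these, and Chrm2 at 10.7 and 6.8 CPM, as pooled counts. A GABAergic sub-cluster outside these types, of 324 nuclei with Slc17a8 and Cnr1 among its leading genes, had more of both, at 1991 CPM of Chrm3 and 428 CPM of Chrm2 as pooled counts. The unnamed nuclei, 2174 of which came from the GABAergic sub-clusters that were not kept, included 2 whole clusters with a high level of both. The first, led by Ebf1, Ebf2 and Ebf3 and with Slc17a6 as its glutamate transporter, had 277 CPM of Chrm2 and 1126 CPM of Chrm3. The second, with Hs3st2 and Tshz2 among its leading genes, had 129 CPM of Chrm2 and 1225 CPM of Chrm3, as counts pooled over mice.

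Chrm4 was barely captured. The 15 libraries held 151 Chrm4 UMIs in all, and its highest class value was 0.558 ± 0.59 CPM, in GABAergic nuclei. Striatal projection neurons, in which the gene is known to be expressed, had 2.03 ± 1.3 CPM (n = 8 mice), and thalamic nuclei had 0 UMIs. The part of the short annotated exon in these low counts was not tested. Chrm4 passed the filter on low counts in 0 of the 5 classes, so edgeR tested it in no comparison.

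Among the nicotinic genes, Chrna7 was the member with hippocampal preference. It was at 142 ± 10 CPM in hippocampal, 105 ± 17 CPM in GABAergic, 52.0 ± 28 CPM in habenula-type, 25.2 ± 6.2 CPM in glial and 18.5 ± 3.4 CPM in thalamic nuclei, and 78% of its UMIs lay in the hippocampal class. Dentate granule, CA1, CA2 and CA3 neurons had 148, 139, 139 and 124 CPM, while subiculum had 35.9 ± 8.1 CPM (n = 12). Mossy cells (278 ± 61 CPM, n = 12) and Lamp5 interneurons (274 ± 74 CPM) were highest. Pvalb interneurons had 36.4 ± 13 CPM. Within the GABAergic class a sub-cluster of Lamp5 interneurons led by Ndnf and Kit reached 535 CPM as pooled counts.

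Chrna4 was highest in the thalamic class. It was at 55.3 ± 15 CPM in thalamic nuclei, against 8.39 ± 3.0 CPM in GABAergic, 7.66 ± 8.9 CPM in habenula-type, 3.90 ± 1.5 CPM in glial and 2.68 ± 1.1 CPM in hippocampal nuclei, and 56.4% of its UMIs came from the 5.62% of nuclei that were thalamic. The thalamic sub-clusters of at least 50 nuclei each had between 31.5 and 99.8 CPM. The unnamed nuclei, 4.52% of all, held another 15.4% of its UMIs, at 25.1 ± 7.8 CPM, and 2 unnamed sub-clusters reached 34.8 and 32.2 CPM and a habenula-type one 32.0 CPM, within the thalamic range. Subiculum (25.0 ± 9.4 CPM, n = 12), Vip interneurons (15.7 ± 6.9 CPM), diencephalic or midbrain GABAergic nuclei (12.9 ± 5.5 CPM) and oligodendrocyte precursors (12.0 ± 5.8 CPM) stood above the oligodendrocyte level of 3.18 ± 1.2 CPM. Of the Vip interneurons, the sub-cluster with 410 CPM of Vip had 32.5 CPM of Chrna4 and the other 4.97 CPM.

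Its partner Chrnb2 was spread more evenly. It was at 21.4 ± 4.4 CPM in thalamic, 19.6 ± 8.8 CPM in habenula-type, 12.5 ± 3.7 CPM in GABAergic, 8.79 ± 1.4 CPM in hippocampal and 3.96 ± 0.87 CPM in glial nuclei. Thalamic, habenula-type and GABAergic values followed each other by less than the larger SD. Of 6964 thalamic nuclei, 994 (14.3%; 95% Wilson interval, 13.5 to 15.1%) had UMIs of both Chrna4 and Chrnb2. Chrnb2 was found in 29.0% of the thalamic nuclei with Chrna4 and in 22.2% of those without, and the nuclei with Chrna4 were also deeper, with a median of 16391 against 12662 UMIs.

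Chrna3, Chrnb3 and Chrnb4 were concentrated in the smallest class. Habenula-type nuclei were 1.02% of all nuclei and held 78.6% of the Chrnb4 UMIs, 58.1% of the Chrna3 UMIs and 44.4% of the Chrnb3 UMIs, counted over all mice together. Mouse by mouse, among those with at least 20 UMIs of the gene, the share ran from 75.7 to 89.4% for Chrnb4 (6 mice), from 0 to 83.4% for Chrna3 (12 mice) and from 0 to 83.2% for Chrnb3 (15 mice), and GABAergic nuclei held 11.3 to 93.8% of the Chrnb3 UMIs. Habenula-type nuclei hold most Chrnb4 UMIs, so this cut favours mice with many such nuclei. The Chrnb4 range does not cover the remaining mice. Chrnb4 was at 26.9 ± 25 CPM in habenula-type nuclei (n = 12) and at 0.403 ± 0.39 CPM in GABAergic nuclei, its next class, a ratio of 66.9. Chrna3 was at 38.2 ± 40 CPM, against 4.23 ± 3.4 CPM in GABAergic nuclei, a step that did not exceed its large SD over mice. Chrnb3 was at 44.7 ± 29 CPM and at 8.55 ± 5.8 CPM in GABAergic nuclei. In hippocampal, thalamic and glial nuclei the 3 genes stayed below 1 CPM on average.

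**Figure D1:**
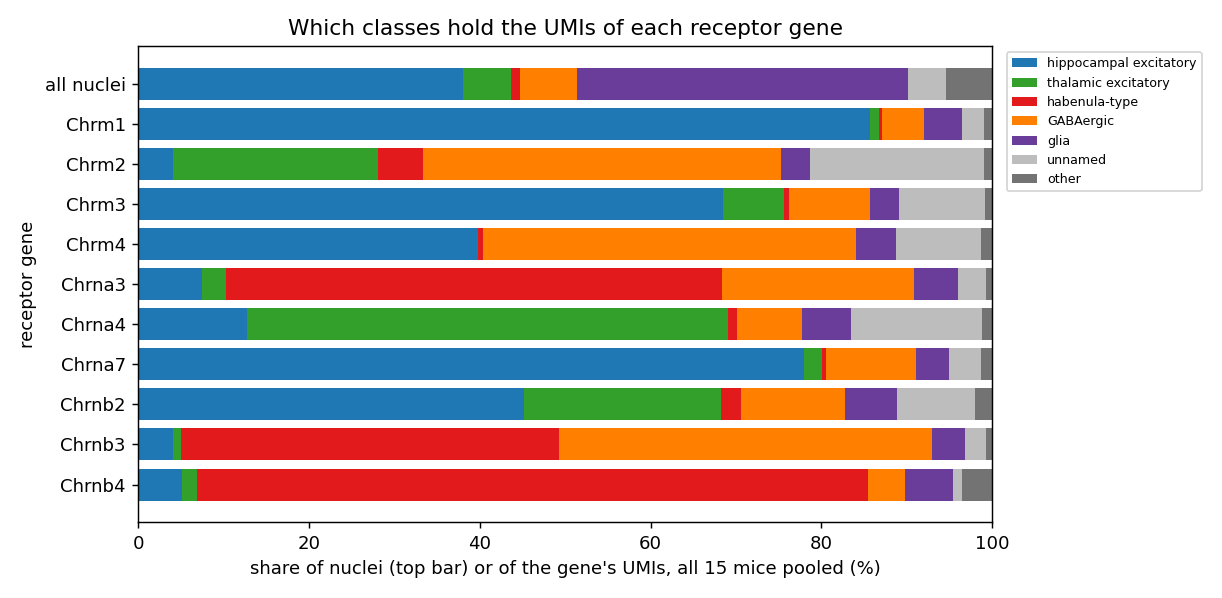
Share of all nuclei (top bar) and of each receptor gene's UMIs (other bars) that fell in each class, in percent, with the 15 mice pooled. Habenula-type nuclei are 1.02% of the nuclei and hold 78.6% of the Chrnb4 UMIs, while the hippocampal class holds 85.7% of the Chrm1 UMIs.

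**Figure D2:**
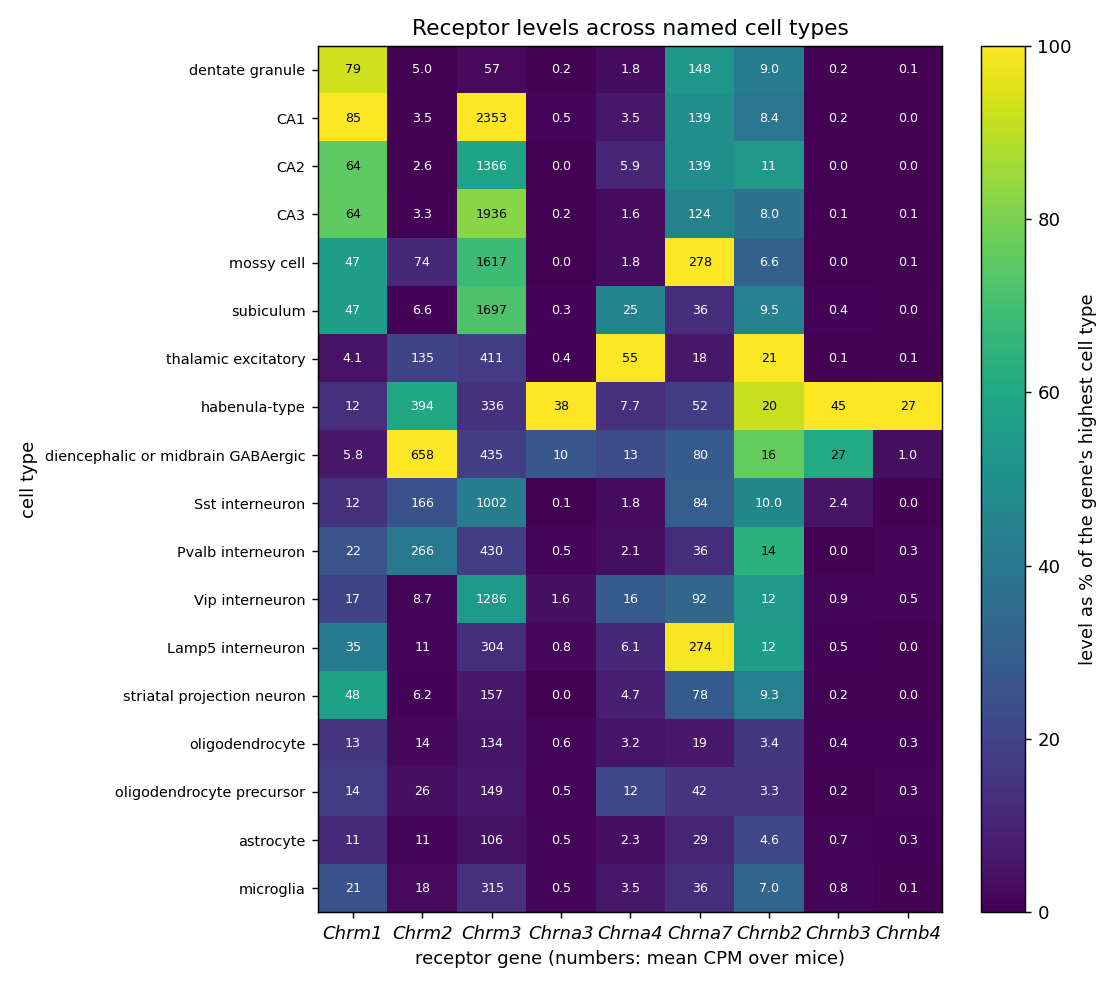
Mean CPM over mice (numbers) of 9 receptor genes in 18 named cell types, coloured as a percent of each gene's highest type. Chrm3 is at 2353 CPM in CA1 and 57 CPM in dentate granule neurons, and Chrna3, Chrnb3 and Chrnb4 have their highest values in habenula-type nuclei.

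The habenula-type class was not uniform, and its 18 sub-clusters were grouped by genes that are not receptors. In 4 sub-clusters (374 nuclei) the mean level of Chat, which makes acetylcholine, was at least 100 CPM. Another 9 sub-clusters (601 nuclei) had Slc17a7 but little Chat. Pooled, they had 155 CPM of Tac2 and 69.4 CPM of Tac1, the precursors of tachykinin peptides, although 1 of them, of 73 nuclei, had 1.3 CPM of each. The remaining 5 sub-clusters (283 nuclei) had under 50 CPM of Slc17a7 and had high Gap43, Pcdh10 and Gpr151. The cut-offs were set after the sub-clusters had been seen, and the nearest sub-clusters on either side stood at 38.1 and 149.7 CPM of Chat and at 13.5 and 56.9 CPM of Slc17a7.

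Chat sub-clusters carried Chrna3, Chrnb4 and Chrnb3 in most of their nuclei, and Chrna5 and Chrna6 in 2.94% and 2.14%. Chrna3 was found in 73.8% of their nuclei, Chrnb4 in 59.4% and Chrnb3 in 57.5%, with mean levels of 168 ± 40, 114 ± 42 and 110 ± 35 CPM (SD, n = 6 mice with at least 10 such nuclei). In the sub-clusters with Slc17a7 and little Chat the same genes were found in 21.0%, 19.3% and 20.5% of nuclei, at 27.9 ± 17, 22.4 ± 12 and 42.1 ± 15 CPM (n = 8). In the sub-clusters low in Slc17a7 they were found in 1.06%, 1.77% and 3.53% of nuclei. There Chrm2 was at 1007 ± 374 CPM (n = 9 mice) and was found in 62.9% of nuclei, against 21.7 CPM in the Chat and 41.1 CPM in the Slc17a7 sub-clusters.

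Chrnb3 did not follow Chrna3 and Chrnb4 in every sub-cluster. A sub-cluster of 64 nuclei had 101 CPM of Chrnb3 with 1.7 CPM of Chrna3 and 3.5 CPM of Chrnb4, and another of 73 nuclei had 92.0 CPM of Chrnb3 and 0 UMIs of the other 2 genes. A sub-cluster of 78 nuclei had the reverse, with 157 CPM of Chrna3, 83.9 CPM of Chrnb4 and 1.5 CPM of Chrnb3. Each of these 3 sub-clusters had at least 10 nuclei from only 2 mice.

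**Figure D3:**
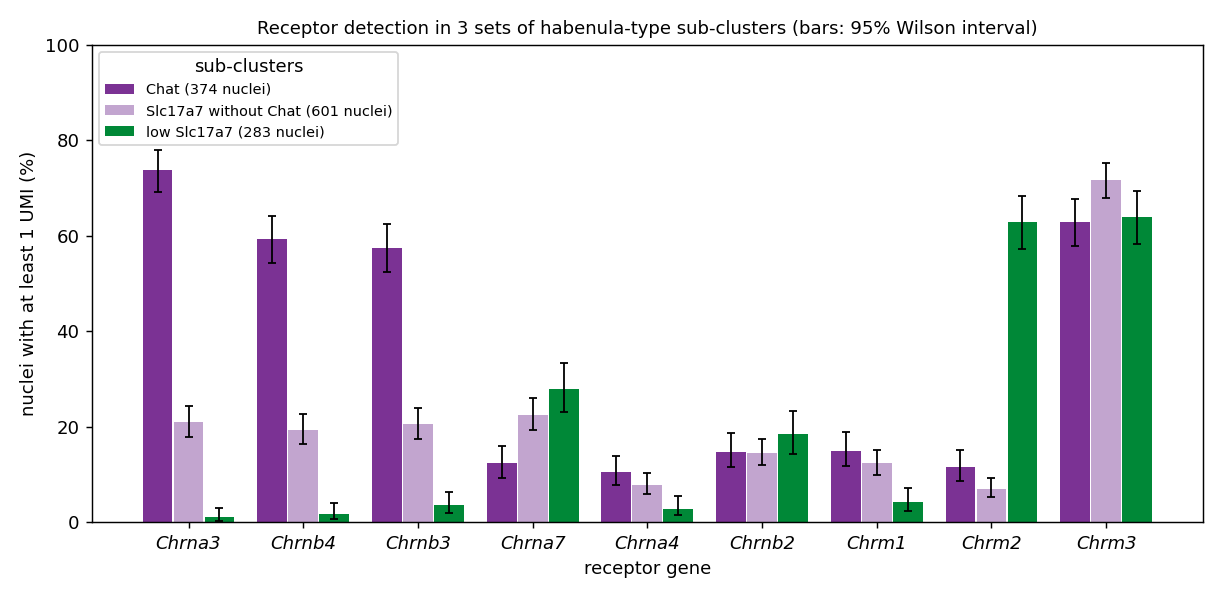
Percent of nuclei with at least 1 UMI of each receptor gene in 3 sets of habenula-type sub-clusters, with 95% Wilson intervals that cover counting error only. Chrna3, Chrnb4 and Chrnb3 are in 73.8%, 59.4% and 57.5% of the 374 Chat nuclei and in under 4% of the 283 nuclei low in Slc17a7, where Chrm2 is in 62.9%.

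Subunits can share a channel only if they are in the same cell, so their detection in the same nuclei was counted. Both Chrna3 and Chrnb4 were found in 218 of 1258 habenula-type nuclei (17.3%; 95% Wilson interval, 15.3 to 19.5%), and Chrnb4 was in 53.8% of the nuclei with Chrna3 against 14.7% of those without. The nuclei with Chrna3 were also deeper, with a median of 10485 against 9125 UMIs. Among the 374 nuclei of the Chat sub-clusters, 172 (46.0%) had both genes, 176 (47.1%) had Chrna3 and Chrnb3, and 138 (36.9%) had Chrnb4 and Chrnb3. There Chrnb4 was in 62.3% of the nuclei with Chrna3 and 51.0% of those without, a smaller gap than over the whole class. Chrnb3 was in 63.8% and 39.8% of these nuclei, and the medians were 10772.5 and 8165 UMIs. With and without Chrnb4, Chrnb3 was in 62.2% and 50.7%. In the Slc17a7 sub-clusters with little Chat, Chrnb3 was in 11.9% of nuclei with Chrna3 and in 22.7% of those without. Chrna5, which lies beside Chrna3, was found in 17 habenula-type nuclei. These shares are descriptions, since the nuclei come from few mice and the sub-clusters were formed from the same nuclei.

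A second place of Chrnb3 was found among GABAergic nuclei. A sub-cluster of 443 nuclei from 14 mice with at least 10, classed as diencephalic or midbrain and with Otx2 and Otx2os1 among its leading genes, had 164 CPM of Chrnb3, 31 CPM of Chrna3, and 1274 CPM of Chrm2, and 2 of its nuclei had a Chrnb4 UMI. Chrnb3 was itself a leading gene of this sub-cluster, although the receptor genes were not used to form it. The sub-cluster was picked for description because Chrna6 was among its leading genes. Detection of Chrna6 in it is therefore no separate result. The GABAergic class as a whole held 43.6% of all Chrnb3 UMIs. Chrna6, the subunit with which Chrnb3 is known to assemble and its neighbour on chromosome 8, was found there together with Chrnb3 in 78 nuclei (17.6%; 14.3 to 21.4%), in 31.3% of the nuclei with Chrnb3 and 13.4% of those without, the nuclei with Chrnb3 being deeper, with a median of 9455 against 7525 UMIs. Chrna3 and Chrnb4 were found together in 1 of the 443. Chrm3 was at 122 CPM, near the oligodendrocyte level.

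The genes whose levels over the 36 clusters were most like those of a member were ranked by Pearson's correlation of log2(CPM + 1) among 13651 candidates, as a description without a test. All mice are pooled, and the clusters share libraries and differ in depth. For Chrnb4 they were Gpr151 (0.88), a habenular orphan receptor, Cngb3 (0.88) and Tyrp1 (0.86). Tyrp1 (0.77) was also first for Chrna3. For Chrnb3 they were Cdhr1 (0.80), Chrna6 (0.79) and Dmbx1 (0.75). Chrna4 was most like Coro6 (0.77) and Nefh (0.76), a neurofilament of large axons, Chrna7 most like Dlgap2 (0.84) and Trpc5 (0.81), and Chrnb2 most like Snhg14 (0.86) and Adar (0.85), the gene it overlaps. Chrm1 was most like Icam5 (0.89), a telencephalic adhesion molecule, Chrm2 most like Resp18 (0.89) and Chrm3 most like St8sia5 (0.86).

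Of the 39 other cholinergic genes listed, those highest in habenula-type nuclei included several that make, carry or break down acetylcholine. Chat was at 39.8 ± 48 CPM and the choline transporter Slc5a7 at 34.0 ± 34 CPM (n = 12), and both were at 225 and 177 CPM in the Chat sub-clusters. Ache, which breaks acetylcholine down, was at 39.7 ± 11 CPM, whereas Bche, another such enzyme, was at 2.55 ± 2.4 CPM there and, of the 5 classes, highest in glia (37.8 ± 7.8 CPM). The receptor chaperones Ric3 and Tmem35a were at 62.0 ± 16 and 19.3 ± 11 CPM, the Ly6 protein gene Ly6h at 60.1 ± 23 CPM and Gna11, a Gq-family alpha subunit, at 25.1 ± 12 CPM. Ric3, Ly6h and Gna11 stood above their next class, at 55.0, 57.8 and 23.1 CPM, by less than the larger SD. So did Chat and Slc5a7, at 2.86 CPM in GABAergic and 3.63 CPM in glial nuclei, since their SD over mice is large.

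The 3 groups were then compared within each class, to ask whether reproductive experience or postpartum stress went with other receptor levels. UMIs were summed per mouse and class and fitted with edgeR's quasi-likelihood test over all genes, with Benjamini-Hochberg adjustment, in 13 comparisons. Habenula-type nuclei allowed StressPP minus NP only, because 2 ControlPP mice had at least 10 of them. The filter on low counts left 7 members in hippocampal, 6 in thalamic, 9 in habenula-type, 8 in GABAergic and 6 in glial nuclei. Of 90 tests of a member, 0 passed an adjusted p of 0.05, the smallest adjusted p being 0.98, and 4 had an unadjusted p under 0.05. In calls the background was the same: 0% of the 9788 to 18056 genes tested were called in each of the 13 comparisons, with 136 to 575 genes at an unadjusted p under 0.05. The 4 member tests were 2 of 6 in glia for StressPP minus NP, beside 575 of 16573 genes. The others were 1 of 6 in thalamic nuclei for ControlPP minus NP, beside 240 of 14188 genes, and 1 of 6 for StressPP minus ControlPP, beside 136. DESeq2 also called 0 genes, with 11 of 127 member tests at an unadjusted p under 0.05, and 159 to 654 of the 22239 to 27918 genes it tested in each comparison. In data simulated for ControlPP minus NP, 84 to 89% of 200 genes changed by 2-fold were recovered in 4 classes, and 65% for StressPP minus NP in habenula-type nuclei. The other comparisons were not simulated. The changed genes were drawn from well-counted genes only, and every gene was given the same spread between mice. The recovered shares therefore do not hold for members with few UMIs or a wide spread. Chrna3 in hippocampal nuclei, for example, had 113 UMIs over all mice and an SE of 0.63 for ControlPP minus NP.

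**Figure D4:**
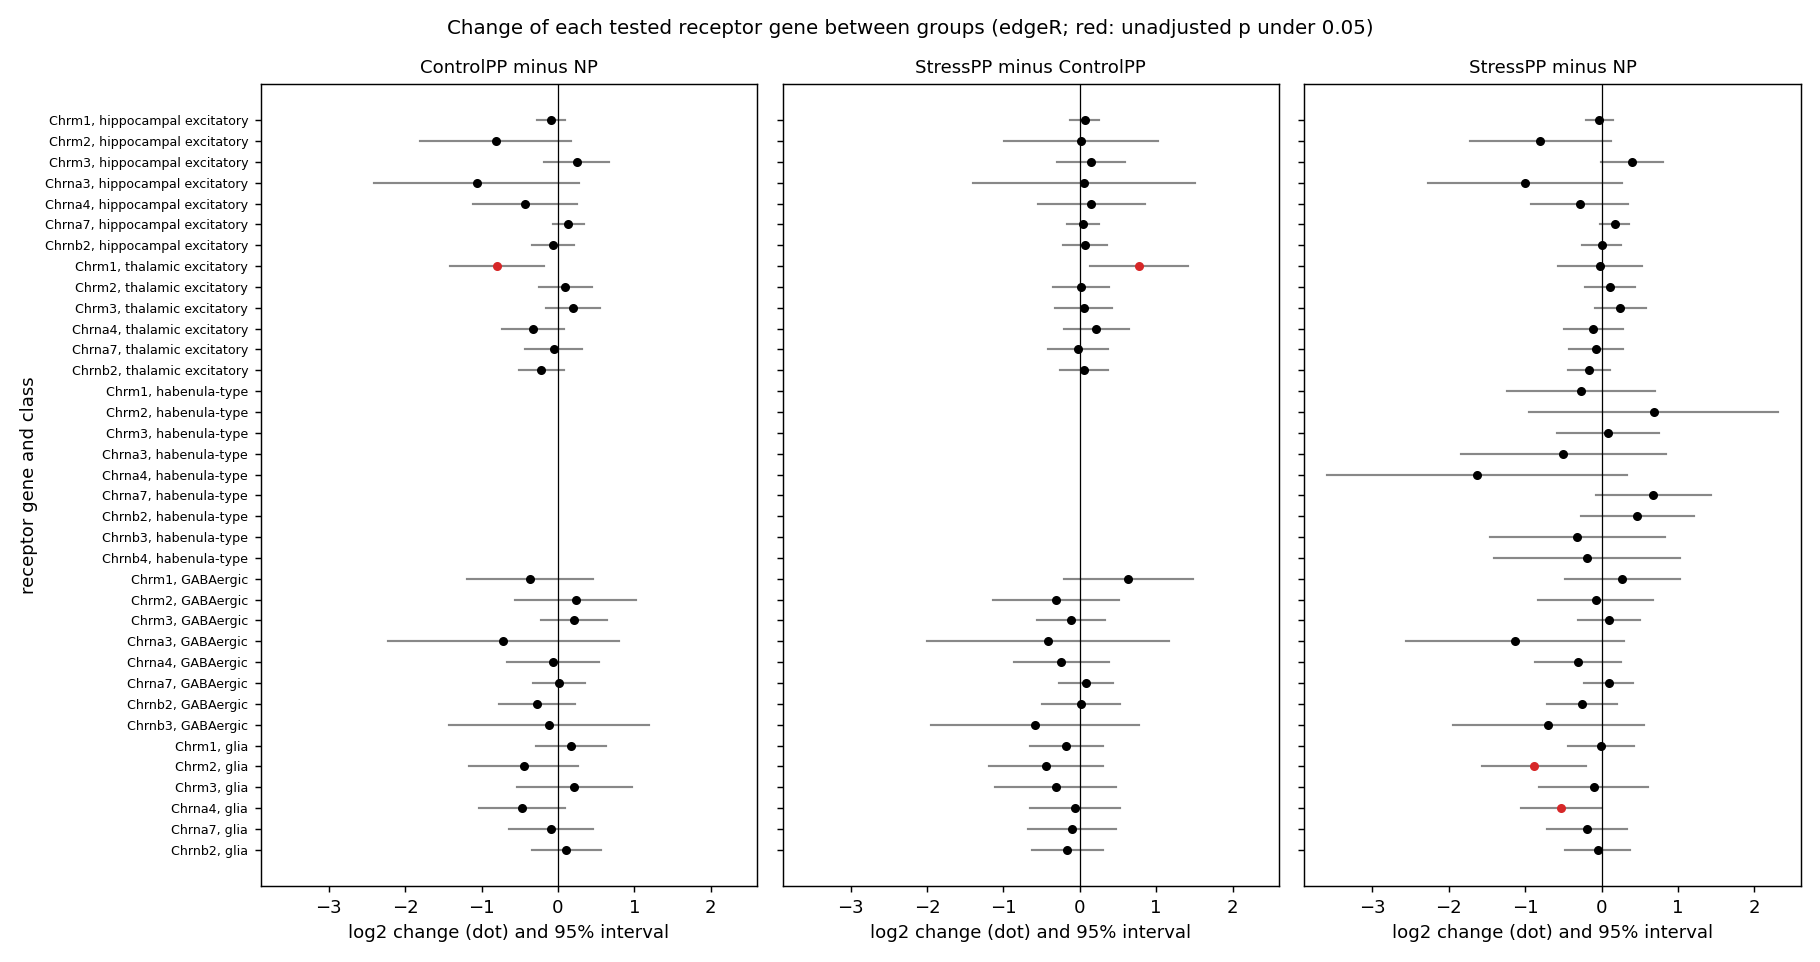
Log2 change (dots) and 95% interval (lines) of each tested receptor gene and class in the 3 contrasts, from edgeR, with an unadjusted p under 0.05 in red. The 4 red dots are Chrm1 in thalamic nuclei in 2 contrasts and Chrm2 and Chrna4 in glia in StressPP minus NP, and 0 of the 90 tests pass after adjustment.

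In hippocampal neurons, the most numerous neuronal class, Chrm1 and Chrna7 were close between groups. Chrm1 in this class was at 79.6 ± 11 CPM in NP (n = 6), 71.0 ± 2.5 CPM in ControlPP (n = 4) and 74.3 ± 6.3 CPM in StressPP mice (n = 5), and the edgeR log2 difference of ControlPP from NP was -0.09 (95% interval, -0.28 to 0.09). Chrna7 was at 136 ± 11, 143 ± 4.9 and 147 ± 11 CPM, with a ControlPP minus NP difference of 0.13 (-0.07 to 0.34). Chrm3 was at 730 ± 120, 834 ± 140 and 919 ± 281 CPM over the whole class, and its StressPP minus NP difference was 0.39 (-0.01 to 0.80; edgeR adjusted p = 1.00). In CA1 alone it was at 2246 ± 326, 2444 ± 140 and 2410 ± 150 CPM.

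The smallest unadjusted p of ControlPP minus NP belonged to Chrm1 in thalamic nuclei. It was at 2.61, 2.56, 2.21 and 3.27 CPM in the ControlPP mice 66, 72, 87 and 88, and ranged from 2.76 to 7.22 CPM, with a median of 4.66 CPM, in the 6 NP mice. In the StressPP mice 43, 70, 75, 77 and 90 it was at 6.19, 3.47, 4.93, 3.21 and 3.96 CPM. The ControlPP mice lay at the low end, and mouse 88 overlapped with both other groups. The log2 difference was -0.80 ± 0.29 (SE; 95% interval, -1.41 to -0.18; edgeR adjusted p = 1.00) for ControlPP minus NP and 0.77 ± 0.30 (0.13 to 1.41; adjusted p = 1.00) for StressPP minus ControlPP. Within batch 2 the ControlPP mice had 2.56 and 3.27 CPM against 3.69 and 2.81 CPM in the NP mice, and within batch 3 they had 2.61 and 2.21 against 2.76 and 7.22 CPM. With batch as a term the differences were -0.71 and 0.72. All these values lie below the 13.4 CPM of Chrm1 in oligodendrocytes, which were far shallower, with a median of 2500 against 14492.5 UMIs in thalamic nuclei. At least 1 Chrm1 UMI was found in 3.39% of oligodendrocyte and 5.49% of thalamic nuclei, or 1.43% and 0.389% thinned. The part of free RNA in the thalamic values was not tested.

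In StressPP minus NP the smallest p belonged to Chrm2 in glia. It ranged from 9.08 to 29.6 CPM with a median of 17.7 CPM in NP mice, was at 14.9, 8.42, 15.3 and 15.7 CPM in the ControlPP mice 66, 72, 87 and 88, and at 6.35, 16.5, 8.80, 7.59 and 11.9 CPM in the StressPP mice 43, 70, 75, 77 and 90. The groups overlapped. Within batch 1 the StressPP mouse had 16.5 CPM against 26 and 20.2 CPM in the NP mice. Within batch 2 the values were 7.59 and 11.9 against 12.4 and 29.6 CPM, and within batch 3 they were 6.35 and 8.80 against 9.08 and 15.2 CPM. The log2 difference was -0.89 ± 0.32 (SE; 95% interval, -1.57 to -0.21; edgeR adjusted p = 1.00), -0.82 with batch as a term, -1.08 in oligodendrocytes and -1.11 in astrocytes alone. Oligodendrocytes, used above to show free RNA, had 18.6 CPM in NP and 9.01 CPM in StressPP mice, close to 18.7 and 10.2 CPM in all glia. The part of free RNA in these differences was not tested.

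In hippocampal nuclei, where Chrm2 is scarce, it was at 7.54 ± 3.6 CPM in NP, 4.07 ± 1.5 CPM in ControlPP and 4.09 ± 2.4 CPM in StressPP mice, a StressPP minus NP difference of -0.80 on the log2 scale (-1.72 to 0.12; edgeR adjusted p = 1.00). Where it is abundant, Chrm2 was at 132 ± 16, 136 ± 16 and 138 ± 33 CPM in the same groups in thalamic nuclei, at 250.3 ± 143 (n = 6), 801 ± 683 (n = 2) and 407 ± 604 CPM (n = 4) in habenula-type nuclei and at 629 ± 130, 707 ± 150 and 652 ± 100 CPM in diencephalic or midbrain GABAergic nuclei. The median share of habenula-type nuclei was 2.10% in NP, 0.140% in ControlPP and 0.236% in StressPP mice. They held 5.23% of all Chrm2 UMIs, mostly in the sub-clusters low in Slc17a7. In the same groups the median share was 6.56, 4.89 and 9.14% for GABAergic nuclei, which held 41.9% of the Chrm2 UMIs. It was 5.92, 5.36 and 5.20% for thalamic and 3.64, 4.06 and 5.29% for unnamed nuclei, which held 24.0% and 20.4%. The part of these shares in the glial values was not tested.

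The other combinations named by their small p were also at low levels. Chrna4 in glia was at 4.78 ± 1.9 CPM in NP, 3.39 ± 0.84 CPM in ControlPP and 3.25 ± 0.74 CPM in StressPP mice. Its log2 difference was -0.47 ± 0.26 (SE; -1.03 to 0.09; edgeR adjusted p = 1.00) for ControlPP minus NP and -0.53 ± 0.25 (adjusted p = 1.00) for StressPP minus NP. The highest NP values, 5.66 and 8.21 CPM, were those of the 2 mice of batch 1, a batch with no ControlPP mouse, and with batch as a term the differences were -0.25 and -0.38. Without NP mouse 31, the higher of these mice, they were -0.26 and -0.31. In oligodendrocytes, used above to show free RNA, Chrna4 was at 3.98, 3.11 and 2.30 CPM in NP, ControlPP and StressPP mice. The part of free RNA in the glial differences was not tested. Chrm1 in GABAergic nuclei was at 16.0 ± 0.87 CPM in ControlPP and 24.6 ± 11 CPM in StressPP mice, a log2 difference of 0.64 ± 0.40 (-0.21 to 1.48; edgeR adjusted p = 1.00). It was 0.15 without striatal projection neurons, which made up 0 to 13.8% of the GABAergic nuclei of ControlPP and 0 to 56.8% of those of StressPP mice.

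The habenular subunits varied widely between mice. Chrnb4 in habenula-type nuclei was at 17.3, 45.9, 15.8, 66, 50.2 and 18.0 CPM in the NP mice 27, 31, 35, 37, 63 and 73, at 33.4, 66.1, 0 and 0 CPM in the StressPP mice 43, 70, 75 and 77, and at 0 and 10.6 CPM in the ControlPP mice 66 and 88. Chrna3 was at 29.8, 82.0, 15.8, 103, 79.2 and 21.5 CPM in the same NP mice, at 35.4, 91.3, 0 and 0 CPM in the StressPP mice and at 0 CPM in both ControlPP mice. The mice at 0 for Chrnb4 had no nucleus in the Chat sub-clusters, and neither had NP mouse 35 or ControlPP mouse 88. Of the 374 Chat nuclei, 158 came from mouse 37, 116 from mouse 63, 54 from mouse 31 and 18 from mouse 70, with 8 to 10 from each of the mice 27, 43 and 73.

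Chrm2 ran the other way in these nuclei, with 1283 CPM in ControlPP mouse 66 and 1296 CPM in StressPP mouse 75, the mice with 28 and 27 of their nuclei in the sub-clusters low in Slc17a7. The mix of sub-clusters in a mouse and the level of these genes per nucleus therefore cannot be told apart in the class as a whole. Between StressPP and NP mice the log2 differences were -0.19 ± 0.57 (SE) for Chrnb4, -0.50 ± 0.63 for Chrna3 and -1.63 ± 0.92 for Chrna4, and 0.68 ± 0.36 for Chrna7, 0.68 ± 0.76 for Chrm2 and 0.47 ± 0.35 for Chrnb2 (edgeR adjusted p = 1.00 for each). The mean of Chrna4 did not follow its fitted difference, at 7.61 CPM in NP and 8.30 CPM in StressPP mice. Its medians were 7.65 and 0.98 CPM, and the highest StressPP mouse was at 31.2 CPM. Chrnb3 was at 52.4 ± 27 CPM in NP (n = 6) and 38.0 ± 36 CPM in StressPP mice (n = 4).

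**Figure D5:**
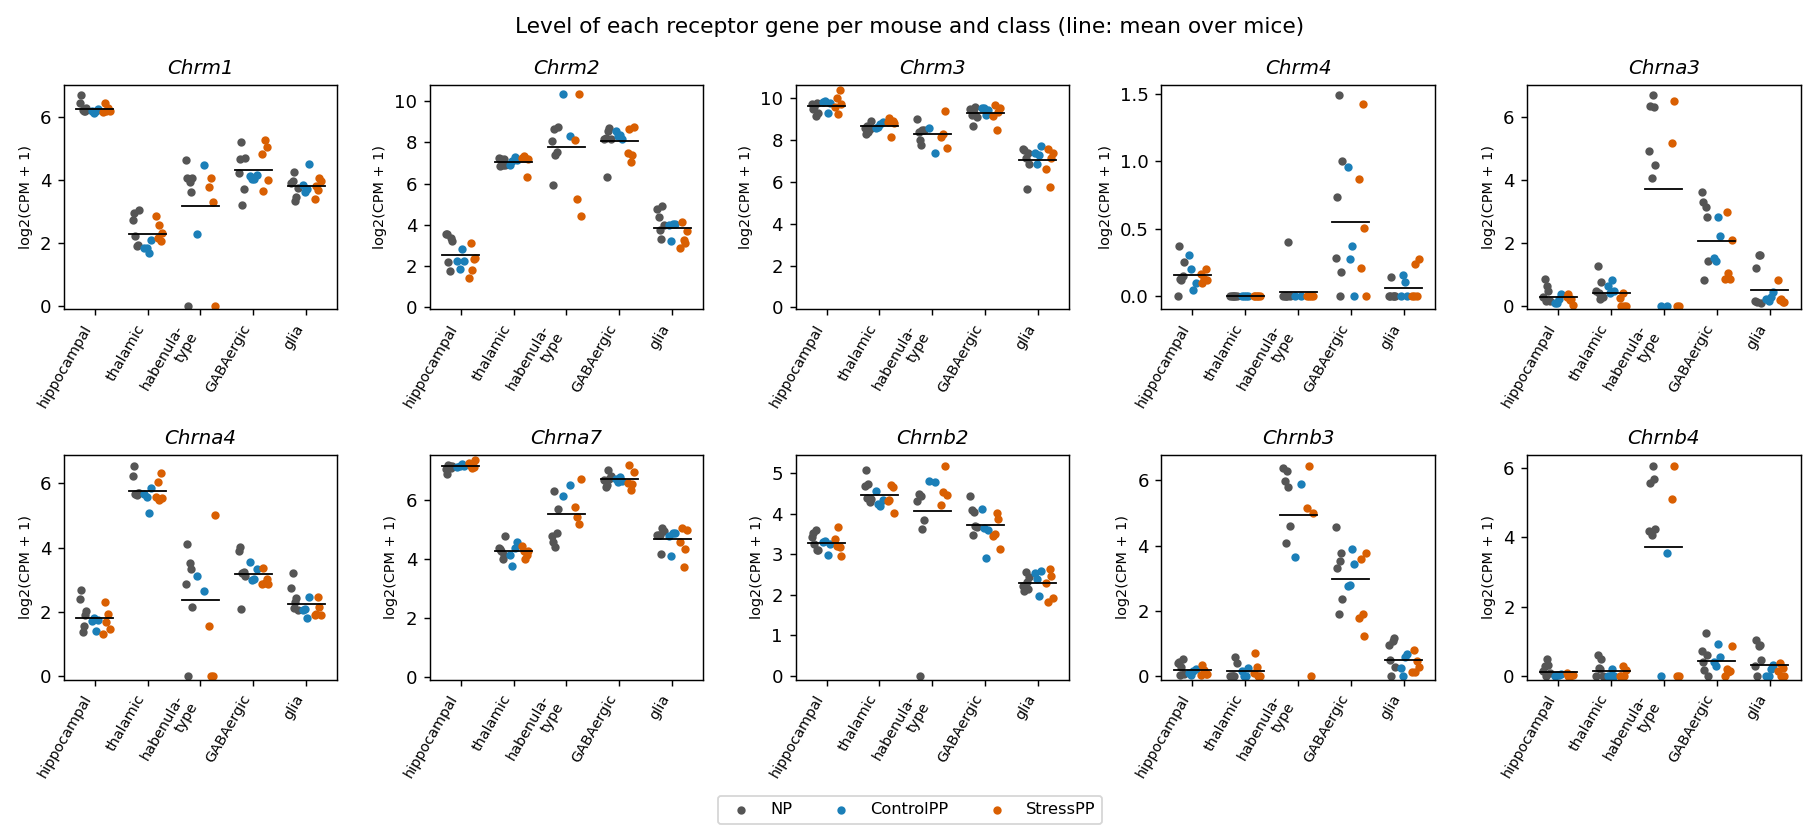
Level of each receptor gene as log2(CPM + 1) per mouse (points, coloured by group) in the 5 classes, with the mean over mice as a line. Hippocampal Chrm1 and Chrna7 lie close together over all mice, and Chrna3 in habenula-type nuclei runs from 0 to 103 CPM.

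The direction of the differences was counted over the members tested in each class. In hippocampal nuclei 7 members were tested, and 2 were higher and 5 lower in ControlPP than in NP mice, with a median log2 difference of -0.09 against 0.00 over 18056 genes. In thalamic nuclei the counts were 2 and 4 and the median -0.14, in GABAergic nuclei 3 and 5 and -0.09, and in glia 3 and 3 and 0.01. Over all genes tested in this contrast, 9143 of 18056 were higher in hippocampal, 6986 of 14188 in thalamic, 6627 of 15170 in GABAergic and 8397 of 16573 in glial nuclei. In habenula-type nuclei, compared only between StressPP and NP mice, 4 were higher and 5 lower in StressPP mice, with a median of -0.19. There 4690 of 9788 genes were higher. From ControlPP to StressPP all 7 hippocampal members had positive differences, of 0.01 to 0.15, and all 6 glial members negative ones, of -0.44 to -0.06, where 8564 of 18056 and 7831 of 16573 genes had positive ones. In the same contrast 5 thalamic members were positive and 1 negative, and 3 GABAergic members were positive and 5 negative. Over all genes 6720 of 14188 thalamic and 7450 of 15170 GABAergic differences were positive. In StressPP minus NP, 2 hippocampal members were positive and 5 negative, 2 and 4 thalamic, 3 and 5 GABAergic and 0 and 6 glial. Over all genes, 9041 of 18056, 6800 of 14188, 7125 of 15170 and 8145 of 16573 were positive in these classes. The 3 contrasts share mice with each other, and 0 of the values passed the test.

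Of the other cholinergic genes, 0 of 341 tests were called by edgeR, with 9 at an unadjusted p under 0.05, and 0 of 497 by DESeq2, with 17. Counts over all genes for ControlPP minus NP are given above. For that contrast 12 of the other cholinergic genes were higher and 16 lower in hippocampal, 9 and 14 in thalamic, 11 and 16 in glial and 7 and 21 in GABAergic nuclei. The median log2 difference of the last was -0.20 against -0.03 over 15170 genes, of which 6627 were higher. Striatal projection neurons made up 0 to 65.9% (median 0.228%) of the GABAergic nuclei of the NP mice. In the ControlPP mice they made up 0 to 13.8% (median 7.12%), and the part of this in the GABAergic differences was not tested.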

How the data were processed

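Nuclei from bilateral dHF punches of 15 mice were captured with 10x Chromium 3′ chemistry, 1 library per mouse. The authors aligned the reads with Cell Ranger 7.1.0 to mm10, per the study's methods, and deposited filtered matrices of raw UMI counts. The Cell Ranger version in the file headers differs from this, and the labels' processing notes name a second build beside mm10. Ambient RNA correction and doublet removal are named in the methods for later steps and are not in the counts used here.

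Barcodes with at least 200 genes and under 5% mitochondrial UMIs were kept (0 to 58 per library removed). Scrublet scores in scanpy 1.11.5 ranked doublets, and the top share expected at 0.8% per 1000 nuclei was removed, 263 to 1298 per library. Clusters came from 2000 variable genes without the cholinergic genes, 30 principal components and Leiden resolution 1, and were named from marker lists. GABAergic nuclei were clustered again, a step chosen after seeing the data, because a first cluster mixed Gad2 and Slc17a6 nuclei. This left 22 of 27 sub-clusters in the class, and the 2174 other nuclei became unnamed. Median depth per nucleus was 3993 to 8754 UMIs by library.

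Deposited counts were summed per mouse and class. edgeR 4.0.16 (filterByExpr, TMM, quasi-likelihood, all 3 groups in 1 fit, no covariate) was the main test and DESeq2 1.42.0 an alternative. Only edgeR was tested on simulated data, with 200 changed genes. Between groups, the text names the 2 member and class combinations of smallest p in each contrast by that rule. Differences given for other hippocampal and habenula-type members were chosen after their values were seen. Alternatives were other normalization, no filter, batch as a term, other class definitions, cluster resolution 2, at least 30 nuclei, thinning and each mouse left out. The members, gene lists and tests were chosen with earlier results of these data known. Intervals for shares cover counting error only.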

Additional observations from a re-analysis of the deposited data

Results flagged for a closer look

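Within-group values were searched for a mouse standing apart from the others of its group by Dixon's criterion, in 35 groups of 4 to 6 mice. Chance alone marks about 1 in 20 such groups, and 3 were marked, all in ControlPP, the smallest group. Chrm2 in glia was at 8.42 CPM in ControlPP mouse 72, where the other 3 mice were between 14.9 and 15.7 CPM. Chrm3 in hippocampal neurons was at 620.5 CPM in ControlPP mouse 87 and between 873 and 924 CPM in the others. Chrna7 in hippocampal neurons was at 150.7 CPM in the same mouse 87 and between 140.1 and 141.4 CPM in the others.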

How the results depend on the processing

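In 111 fits, covering the main setting, 13 other settings and 72 with 1 mouse left out, 0 genes and 0 members were called. No paired analysis was possible because the replicate numbers are mouse numbers and the groups share none of them. Requiring 30 nuclei left 2 StressPP mice with habenula-type nuclei, so that comparison was not run. The log2 difference of Chrm2 in glia (StressPP minus NP) ranged from -1.13 to -0.67 over 23 settings, with an unadjusted p under 0.05 in 23. Chrm1 in thalamic nuclei ranged from -0.92 to -0.62 (ControlPP minus NP, 20 of 20) and from 0.60 to 0.87 (StressPP minus ControlPP, 19 of 20). Chrna4 in glia ranged from -0.76 to -0.31 (StressPP minus NP, 10 of 22) and from -0.64 to -0.25 (ControlPP minus NP, 2 of 22), and Chrm1 in GABAergic nuclei from 0.15 to 0.81 (0 of 22). These combinations were named for their small p and the settings refit largely the same mice, so the counts are not separate evidence. The 50 class levels moved by at most 1 SD over mice under all 150 alternatives run on them. In habenula-type nuclei this SD is about as large as the mean for several genes, so the check says little there. As counts pooled over mice, Chrm2, Chrna3 and Chrnb4 were at 248, 68.0 and 44.7 CPM in this class. Their means over mice were 394, 38.2 and 26.9 CPM. Shares of nuclei with a UMI fell when nuclei were thinned to 1000 UMIs, by construction, with shallower nuclei left out (1804 hippocampal and 486 oligodendrocyte nuclei, for example). They went from 48.7 to 7.35% (Chrm1), 48.6 to 26.7% (Chrm3) and 61.4 to 12.7% (Chrna7) in hippocampal nuclei. In thalamic nuclei they went from 49.2 to 5.66% (Chrna4) and 25.6 to 1.90% (Chrnb2), and for Chrm4 in GABAergic nuclei from 0.797 to 0.0605%. In habenula-type nuclei they went from 20.9 to 10.6% (Chrm2), 32.2 to 6.84% (Chrna3), 27.7 to 5.49% (Chrnb3) and 27.3 to 3.82% (Chrnb4). Thinned oligodendrocytes had 1.4% (Chrm1), 1.4% (Chrm2), 12.8% (Chrm3), 1.9% (Chrna7) and under 0.4% for the nicotinic genes other than Chrna7.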
